A study of Mus musculus with 5 samples.

Results

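Leukocyte integrins are the adhesion receptors with which blood cells hold on to other cells and to matrix. Described here are 10 integrin subunit genes, namely Itgal, Itgam, Itgax, Itgb2, Itga4, Itga5, Itga6, Itgb1, Itgb7 and Itgb3, of the 19938 genes that could be named in the series. Each was read from the probe set that carries its symbol and no other, and all 10 were found. RNA was measured on 1 expression array for each of 5 cell populations, sorted by flow cytometry from untreated bone marrow of wild type C57Bl/6 mice. All 5 lacked lineage markers (Lin-) and carried CD115, the receptor for colony-stimulating factor. The monocyte-dendritic cell progenitor (MDP) was sorted as CD117+ CD135+, the common dendritic cell progenitor (CDP) as CD117int CD135+ and the common monocyte progenitor (cMoP) as CD117+ CD135-. Classical monocytes were sorted as Ly6C+ TremL4- and nonclassical monocytes as Ly6C- TremL4+ cells. The age, sex and number of mice and the antibodies of the lineage gate are not given in the labels, so whether CD11b, the protein of Itgam, was part of that gate is not known here.

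An integrin is a dimer of an alpha and a beta chain, and a chain reaches the cell surface only with a partner. Itgb2 encodes the beta2 chain (CD18), which pairs with the alpha chains of Itgal (CD11a, forming LFA-1), Itgam (CD11b, forming Mac-1 or complement receptor 3) and Itgax (CD11c, forming complement receptor 4). Itga4 encodes the alpha4 chain, which pairs with beta1 (Itgb1) as VLA-4 or with beta7 (Itgb7) as the receptor for the gut addressin MAdCAM-1. Itga5 and Itga6 encode chains that pair with beta1 and bind fibronectin and laminin, and Itgb3 encodes the beta3 chain of the vitronectin receptor and of the platelet fibrinogen receptor. In marrow, VLA-4 is known for holding progenitors to stromal cells, whereas beta2 integrins are known for the arrest and crawling of monocytes on vessel walls and for phagocytosis.

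Values are the deposited log2 values, and 1 log2 unit is 2-fold. In a comparison, a gene counts as higher or lower if the arrays differed by at least 1 log2 unit and the brighter array reached a floor of 6.27, the median of all named genes' values. There were no replicates, so no difference has a replicate check, no p-value or standard deviation could be given, and precision is limited by the 5 arrays. Neighbouring arrays of a gene are called close where they differ by no more than the median absolute difference of all named genes between those arrays, which ran from 0.10 (MDP and cMoP) to 0.23 (MDP and nonclassical monocytes). Because probe sets differ in how brightly they bind, levels are compared between arrays for 1 gene and not between genes. The sorting genes Kit, Flt3, Csf1r and Treml4 followed their gates, with Treml4 at 11.78 in nonclassical monocytes and at 6.18 in classical monocytes, while Ly6c1 and Ly6c2 were not analysed here. In these sorted pools, more cells carrying a transcript and more transcript per cell cannot be told apart.

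The 10 genes did not follow 1 pattern. Itgb2 and Itgam had both monocyte arrays well above all 3 progenitor arrays. Itgal, Itga4 and Itgb1 had their highest value in nonclassical monocytes. Itgb7 was higher in CDP and in both monocyte populations than in MDP and cMoP, and highest in classical monocytes. Itgax passed the floor in CDP and nonclassical monocytes and not on the other arrays, and Itga6 was lowest in nonclassical monocytes. Itga5 and Itgb3 varied least, with ranges of 1.10 and 0.86 log2 units, and the median range of the 11058 genes that reached the floor on at least 1 array was 0.75.

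**Figure D1:**
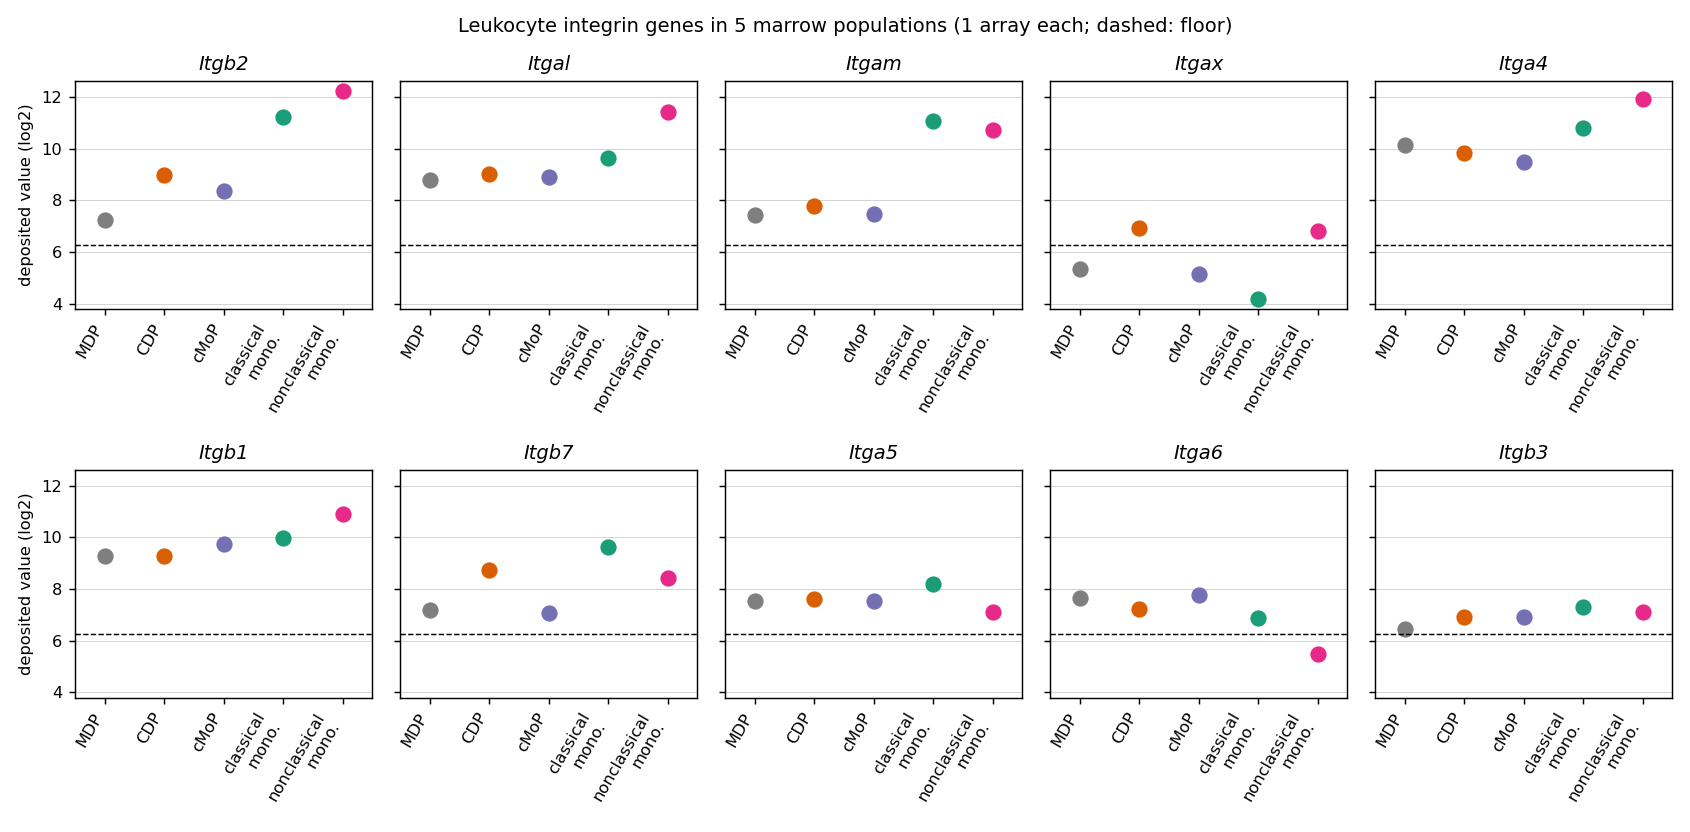
Deposited log2 values (y axis) of the 10 integrin genes in each of the 5 populations (x axis), 1 array and 1 point each, with the floor of 6.27 as a dashed line. Itgb2 climbs from 7.25 in MDP to 12.21 in nonclassical monocytes, and Itgax lies above the line on 2 arrays, at 6.93 in CDP and 6.80 in nonclassical monocytes.

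Of the beta2 family, the shared beta chain varied most. Itgb2 had values of 7.25 in MDP, 8.99 in CDP, 8.34 in cMoP, 11.22 in classical monocytes and 12.21 in nonclassical monocytes. No neighbouring arrays of Itgb2 were close, and all 4 other arrays lay above MDP. The range of 4.97 log2 units is 31.3-fold, and 91 of the 11058 genes past the floor had a larger one. Itgam had values of 7.45 in MDP, 7.79 in CDP, 7.46 in cMoP, 11.06 in classical monocytes and 10.73 in nonclassical monocytes. MDP and cMoP were close, so the alpha chain of Mac-1 showed no step at the cMoP array where Itgb2 was already 1.10 log2 units above MDP. The lower monocyte array of Itgam stood 2.94 log2 units above the highest progenitor array, CDP, and that gap was 2.24 for Itgb2. These were 2 of 10 integrin genes with both monocyte arrays at least 1 log2 unit above all progenitor arrays, a pattern found in 2.34% of all genes past the floor. The reverse pattern, seen in 0.769% of genes, was met by 0 of the 10.

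Itgal had values of 8.77 in MDP, 9.02 in CDP, 8.90 in cMoP, 9.62 in classical monocytes and 11.43 in nonclassical monocytes. The progenitor arrays of this LFA-1 chain lay within 0.25 log2 units of each other, CDP and cMoP being close, and nonclassical monocytes stood 1.81 above classical ones. Itgax had values of 5.35 in MDP, 6.93 in CDP, 5.16 in cMoP, 4.20 in classical monocytes and 6.80 in nonclassical monocytes. CDP and nonclassical monocytes were close for Itgax. The other 3 arrays lay under the floor, where their order is not read, so its fold over them is a lower bound computed against the floor, at least 1.58-fold in CDP and at least 1.44-fold in nonclassical monocytes. In classical monocytes Itgax thus stayed under the floor while Itgam, its neighbour on mouse chromosome 7, was at its highest. In RefSeq the next integrin gene there is Itgad, whose values of 5.94 to 6.16 stayed under the floor on all 5 arrays.

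The promoter windows of Itgam, Itgb7 and Itgax are shown because these 3 genes separate the populations in different ways: Itgam has both monocyte arrays high, Itgb7 is highest in classical monocytes, and Itgax reaches the floor in CDP and nonclassical monocytes. Each window runs from 250 bases before to 50 bases after a start site in RefSeq (GRCm38.p6) and is written 5′ to 3′ on the gene's strand. The Itgam window is chr7:128062390-128062689 on the + strand, the Itgax window chr7:128129300-128129599 on the + strand, and the Itgb7 window chr15:102231886-102232185 on the - strand. Capitals mark GAGGAA or its reverse complement TTCCTC, letters of the core bound by the myeloid factor PU.1 and other ETS proteins, and in Itgax the letters TGAGTCA of an AP-1 site.
Itgam: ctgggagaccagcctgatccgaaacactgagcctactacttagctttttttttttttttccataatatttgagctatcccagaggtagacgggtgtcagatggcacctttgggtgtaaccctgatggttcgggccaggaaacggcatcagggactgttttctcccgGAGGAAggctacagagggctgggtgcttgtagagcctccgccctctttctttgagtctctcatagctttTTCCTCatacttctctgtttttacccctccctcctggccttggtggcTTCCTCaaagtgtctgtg
Itgb7: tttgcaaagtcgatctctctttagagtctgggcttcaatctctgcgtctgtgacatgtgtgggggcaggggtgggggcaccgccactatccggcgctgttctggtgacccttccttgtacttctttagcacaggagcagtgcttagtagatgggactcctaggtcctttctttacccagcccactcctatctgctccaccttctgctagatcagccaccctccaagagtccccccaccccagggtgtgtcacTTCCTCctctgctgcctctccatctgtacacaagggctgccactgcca
Itgax: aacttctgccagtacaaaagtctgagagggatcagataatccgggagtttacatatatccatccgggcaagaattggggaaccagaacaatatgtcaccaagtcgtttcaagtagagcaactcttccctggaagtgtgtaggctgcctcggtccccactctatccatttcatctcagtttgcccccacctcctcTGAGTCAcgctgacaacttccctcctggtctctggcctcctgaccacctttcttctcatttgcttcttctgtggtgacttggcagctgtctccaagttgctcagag

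Of the 10 genes, 6 had a window in the table (Itga4, Itga5, Itgam, Itgax, Itgb1 and Itgb7), and Itgal, Itgb2, Itga6 and Itgb3 were not matched. Searched on both strands, GAGGAA stood in 4 of these 6 windows (Itga5, Itgam, Itgb1 and Itgb7) and in 28.3% of all 32851 windows of the same length. Itgam held 3 matches, which begin 84 and 15 bases before and at base 33 after the start, and Itgb7 held 1, beginning at base 3 after it. TGAGTCA stood in the Itgax window, 56 bases before the start, in none of the other 5, and in 5.2% of all windows. The letters TGTGGT, a RUNX core, stood in the Itga4 and Itgax windows and in 16.8% of all windows, and GGGCGG, an SP1 core, in Itga4, Itga5, Itgam and Itgb1 and in 35.7%. None of these motifs overlap another in the letters searched here for Itgam, Itgb7 or Itgax. A match is a run of letters in the window and was not tested as a binding site.

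Among the alpha4 and beta1 integrins, Itga4 had values of 10.13 in MDP, 9.83 in CDP, 9.47 in cMoP, 10.79 in classical monocytes and 11.91 in nonclassical monocytes. No neighbours in that order were close, and cMoP was the lowest of the 5. Itgb1 had values of 9.30 in MDP, 9.29 in CDP, 9.73 in cMoP, 9.97 in classical monocytes and 10.91 in nonclassical monocytes. MDP and CDP were close for this widely used beta chain, and the range was 1.62 log2 units. The chains of VLA-4 lay on opposite sides of MDP in cMoP, where Itga4 stood -0.66 and Itgb1 0.43 log2 units from MDP. Neither difference reached 1 log2 unit, so neither was counted. Both chains were highest in nonclassical monocytes, at 1.78 and 1.61 above MDP. Itgb7, the other partner of alpha4, had values of 7.20 in MDP, 8.72 in CDP, 7.06 in cMoP, 9.61 in classical monocytes and 8.42 in nonclassical monocytes. No neighbouring arrays of Itgb7 were close, and it differed from Itga4 in having its highest value in classical rather than nonclassical monocytes.

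**Figure D2:**
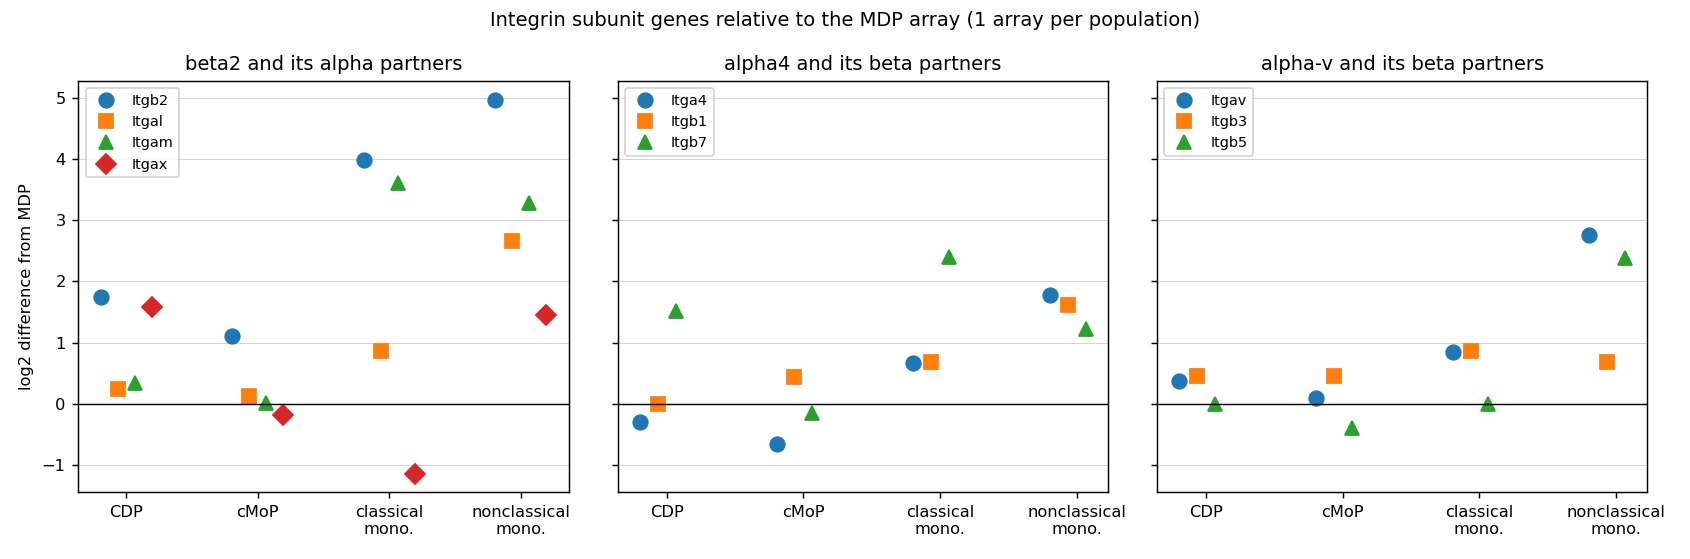
Log2 difference from the MDP array (y axis) of integrin chains that pair with each other, in the other 4 populations (x axis), 1 array each. In nonclassical monocytes Itgb2 stands at 4.97 and Itgal at 2.66, Itga4 and Itgb1 stand at 1.78 and 1.61, and Itgav and Itgb5 stand at 2.76 and 2.39 while Itgb3 stands at 0.69.

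The fibronectin and laminin receptor chains had smaller or opposite differences. Itga5 had values of 7.55 in MDP, 7.60 in CDP, 7.55 in cMoP, 8.20 in classical monocytes and 7.10 in nonclassical monocytes. The 3 progenitor arrays were close, MDP and cMoP being exactly tied, and the monocyte arrays lay on either side of them. Itga6 had values of 7.64 in MDP, 7.21 in CDP, 7.75 in cMoP, 6.88 in classical monocytes and 5.48 in nonclassical monocytes. This laminin receptor chain had all progenitor arrays above both monocyte arrays, with a gap of 0.33 log2 units between CDP and classical monocytes, so it missed the 2-fold rule. Itgb3 had values of 6.45 in MDP, 6.91 in CDP, 6.91 in cMoP, 7.31 in classical monocytes and 7.13 in nonclassical monocytes. CDP and cMoP shared 1 value, the monocyte arrays were close, and MDP was just above the floor. Megakaryocyte and platelet genes, which would come with the platelet form of beta3, were at a log2 summed level of 8.75 to 9.01 on the 5 arrays over 8 measured genes. In a comparison 3 or 4 of them passed the floor and 0 were counted. Over all genes, 1.06% to 9.82% were higher or lower, so with so few genes a count of 0 is near these shares. Between 2 and 4 of the 8 reached the floor on an array. Treml1 (6.55 to 6.90) and Vwf (6.29 to 6.91) lay just above it on all 5, while Pf4, Ppbp and Clec1b lay under it on all 5, at 3.41 to 4.42. Itga2b, the alpha partner of beta3 on platelets, was under the floor on all but the nonclassical array, where it was at 6.33. Their part in the Itgb3 values was not tested.

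CDP was compared with MDP to see what sets the dendritic cell progenitor apart. In CDP, 3 of 10 integrin genes were higher and 0 lower, where over all 10416 genes past the floor the shares were 1.15% higher and 1.06% lower. Itgb2 was higher by 1.74 log2 units (3.34-fold), Itgax by 1.58 (at least 1.58-fold) and Itgb7 by 1.52 (2.87-fold). Of all genes past the floor, 33, 44 and 46 had larger positive differences than these. The other 7 genes lay between -0.43 for Itga6 and 0.46 for Itgb3. The median over the 10 was 0.30, beside -0.01 over all genes past the floor. CDP thus had more transcript of beta2, CD11c and beta7 than MDP, and alpha4 and beta1 differed by -0.30 and -0.01.

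In cMoP against MDP, 9 integrin genes reached the floor, of which 1 was higher and 0 lower, where 1.44% of 10235 genes were higher and 1.4% lower. That gene was Itgb2, higher by 1.10 log2 units (2.14-fold), with 120 genes at larger positive differences. Itga4 had the most negative difference of the 10, at -0.66, and Itgam was within 0.01. With arrays centred on 1 median, all genes in this comparison moved up by 0.11 log2 units and 196 were higher and 106 lower, in place of 147 and 143.

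The committed progenitors were then set against each other. In cMoP against CDP, 2 of 10 integrin genes were lower and 0 higher, where 2.2% of 10441 genes were lower and 3.23% higher. Itgax differed by -1.77 (at least 1.58-fold lower) and Itgb7 by -1.67 (3.18-fold lower), with 64 and 77 genes at more negative differences. Itgb2 differed by -0.64, and Itga6 and Itgb1 were the largest positive differences at 0.54 and 0.44. Centring moved all genes up by 0.11 here as well and gave 468 higher and 182 lower genes in place of 337 and 230. The comparisons among progenitors share arrays, so they are not separate evidence on any gene.

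**Figure D3:**
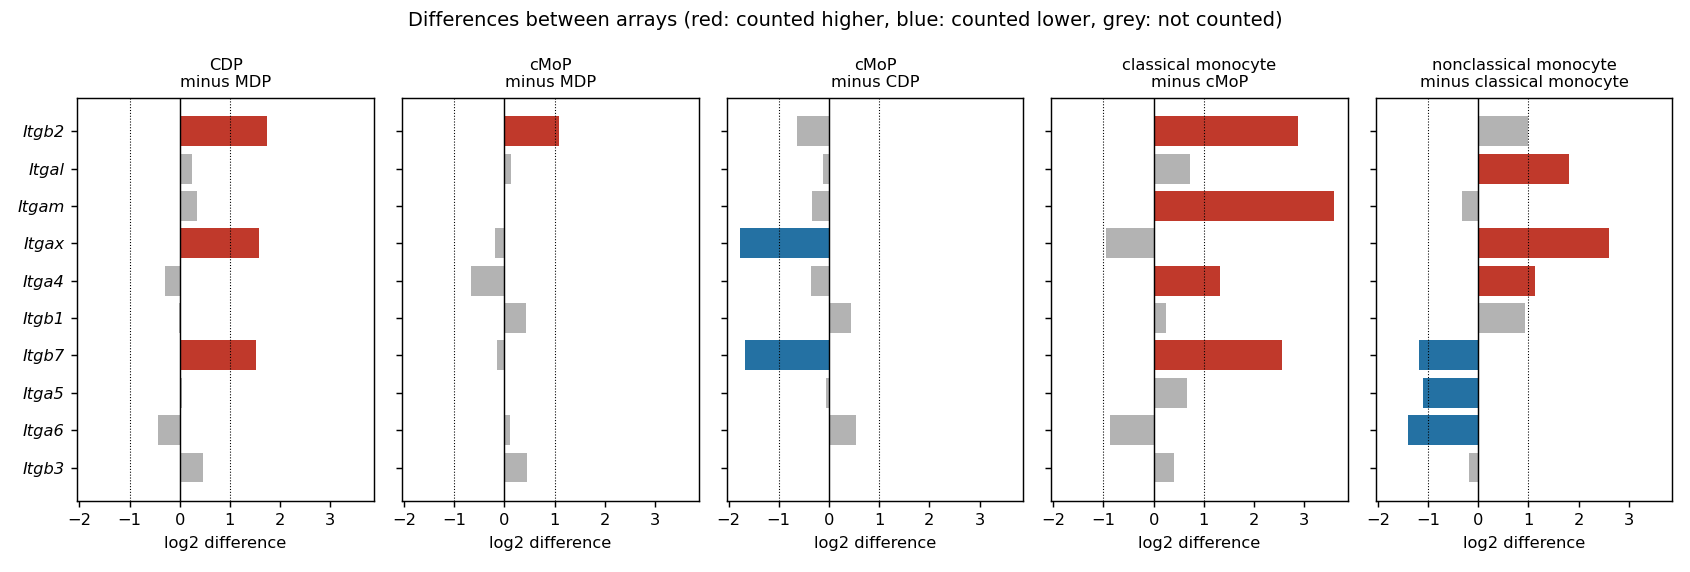
Log2 difference (x axis, dotted lines at -1 and 1) of each integrin gene (y axis) in the 5 comparisons, with genes counted higher in red, counted lower in blue and not counted in grey. Itgam reaches 3.60 in classical monocytes against cMoP, and the last comparison holds 3 red and 3 blue bars.

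Classical monocytes against cMoP held the largest positive differences of the 5 comparisons. With 9 integrin genes reaching the floor, 4 were higher and 0 lower, where 7.01% of 10305 genes were higher and 4.4% lower. Itgam was higher by 3.60 log2 units (12.1-fold), and 43 genes had larger positive differences. Itgb2 was higher by 2.88 (7.35-fold), Itgb7 by 2.55 (5.87-fold) and Itga4 by 1.32 (2.49-fold). Itgal and Itga5 stood at 0.73 and 0.66, and Itga6 at -0.87. The median of the 9 was 0.73, beside -0.01 for all genes. Both chains of Mac-1 and both chains of the alpha4 beta7 receptor were therefore counted higher, whereas beta1 differed by 0.24.

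Itgam is also a gene of neutrophils, and part of that marker list moved with it. Of 12 measured neutrophil genes, 8 passed the floor in this comparison, 5 being higher and 1 lower (7.01% and 4.4% over all genes). The log2 summed level of all 12 was 12.04 in cMoP and 13.96 in classical monocytes. The higher ones included Mmp8 (4.26) and S100a9 (3.66), and the lower one was Cxcr2 (-1.37, at least 1.53-fold lower). Ly6g, Ltf, Retnlg and Mmp9 lay under the floor on all 5 arrays, at 4.63 to 5.34. In nonclassical monocytes, where Itgam was at 10.73, the summed level was 11.11 and Mmp8 was at 4.32. Csf3r, the receptor for granulocyte colony-stimulating factor, was at 8.96 in cMoP, 9.93 in classical monocytes and 10.31 in nonclassical monocytes, its highest array. The part of such cells in the Itgam value was not tested.

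Nonclassical against classical monocytes split the family. Of 10 integrin genes, 3 were higher and 3 lower, where 3.55% of 10503 genes were higher and 9.82% lower. Itgax was higher by 2.60 log2 units (at least 1.44-fold), Itgal by 1.81 (3.51-fold) and Itga4 by 1.12 (2.18-fold). Itga6 differed by -1.40 (at least 1.53-fold lower), Itgb7 by -1.19 (2.28-fold lower) and Itga5 by -1.10 (2.14-fold lower). Itgb2 at 0.99 (1.99-fold) and Itgb1 at 0.94 (1.91-fold) lay just inside the threshold, and after quantile normalization they were at 1.24 and 1.16, which gives 5 higher genes, while Itga5 at -0.995 gives 2 lower. Over all genes, that scaling gave 454 higher and 858 lower in place of 373 and 1031. Itgam and Itgb3 differed by -0.33 and -0.18. Among the alpha partners of beta2, CD11a and CD11c were thus higher in nonclassical monocytes and CD11b was not, and of the beta partners of alpha4, beta7 was lower and beta1 stood just inside the threshold on the higher side. Of 9 marrow macrophage genes, 2 passed the floor in this comparison, Adgre1 and Siglec1. The log2 summed level of all 9 was 10.23 in classical and 11.46 in nonclassical monocytes, where Adgre1 alone was at 9.65 and 11.25. The median difference of the 9 was 0.04, and Cd163 was at 5.64 and 4.99, under the floor on both arrays. Adgre1, a macrophage adhesion receptor, was higher by 1.60, while Siglec1 was at 6.78 in classical and 6.59 in nonclassical monocytes and was not counted. C1qa, C1qb, C1qc, Mertk, Timd4 and Vcam1 lay under the floor on all 5 arrays. The part of macrophages in the result was not tested.

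The other integrin subunits were mostly dim. Of 16 measured, 6 reached the floor in the monocyte comparison, with 2 higher and 2 lower (3.55% and 9.82% over all genes). Itgav, the alpha-v chain that pairs with beta3 and beta5, had values of 7.83 in MDP, 8.20 in CDP, 7.93 in cMoP, 8.68 in classical monocytes and 10.60 in nonclassical monocytes, and was 3.77-fold higher in the last. Itgb5, its beta partner, had values of 7.40 in MDP, 7.40 in CDP, 7.0 in cMoP, 7.40 in classical monocytes and 9.79 in nonclassical monocytes (5.24-fold higher than in classical ones). Itga1, the collagen receptor chain that pairs with beta1, had values of 7.22 in MDP, 7.61 in CDP, 8.41 in cMoP, 9.63 in classical monocytes and 4.91 in nonclassical monocytes. Its difference of -4.72 between the monocyte arrays, at least 10.3-fold, was exceeded downward by 23 of 10503 genes. Itga8 was at 6.97 in classical monocytes and at 5.13 in nonclassical ones (at least 1.63-fold lower). In classical monocytes against cMoP, Itga8 and Itga1 were the 2 higher genes of 4 past the floor, and in cMoP against MDP Itga1 (1.19) was the 1 of 3. The shares of higher genes over all genes were 7.01% and 1.44% in these comparisons. Counting both sets of subunits, Itgal, Itgax, Itga4, Itgav and Itgb5 were higher in nonclassical than in classical monocytes, and Itga1, Itga5, Itga6, Itga8 and Itgb7 were lower.

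Integrins bind with high affinity only once talin and kindlin engage the beta tail, a step driven by the GTPase Rap1, and then link to actin. The list used here mixes genes that promote this step with genes that oppose it, so its counts give no direction of activation. Of 40 measured genes of activation and linkage, 32 passed the floor in classical monocytes against cMoP, of which 8 were higher and 1 was lower (7.01% and 4.4% over all genes), and their median was 0.63, beside -0.01 for all genes. Fgr, a Src family kinase of myeloid integrin signalling, had values of 5.29 in MDP, 6.89 in CDP, 5.57 in cMoP, 10.41 in classical monocytes and 11.78 in nonclassical monocytes, and was at least 17.7-fold higher in classical monocytes than in cMoP. Fyb, the adaptor ADAP, was higher by 3.26 (9.59-fold), Parvb, an actin-binding parvin, by 2.26 (4.78-fold), and Zyx, the focal adhesion protein zyxin, by 1.47 (2.77-fold). Talin itself (Tln1) ranged from 9.40 in MDP to 10.36 in nonclassical monocytes, and the kindlin of blood cells (Fermt3) from 8.57 in CDP to 9.33 in classical monocytes, neither passing the threshold in any of the 5 comparisons.

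Between the monocyte arrays, 3 of 33 activation and linkage genes were higher and 3 lower, where 3.55% and 9.82% of all genes were. The share of lower genes in the list was thus near that of all genes. The median of the 33 was 0.01 beside -0.09 for all genes. Ptk2b, the kinase Pyk2, was higher in nonclassical monocytes by 1.62 (3.08-fold), Sipa1l1, a GTPase-activating protein for Rap, by 1.5 (2.83-fold) and Fgr by 1.37 (2.59-fold). Parvb was 4.71-fold lower and Vcl, which encodes vinculin, 3.37-fold lower, at -2.23 and -1.75. Rap1b, Apbb1ip (the Rap1 effector RIAM), Rassf5 and Fyb lay at 0.88, 0.96, 0.92 and 0.92, and quantile normalization moved all 4 past the threshold, giving 7 higher and 2 lower. Over all genes, it gave 454 higher and 858 lower in place of 373 and 1031. Among progenitors, 1 of 33 genes was higher in CDP than in MDP, Fgr (at least 1.54-fold, since MDP lay under the floor), and 0 of 31 in cMoP. Over all genes, 1.15% and 1.44% were higher.

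**Figure D4:**
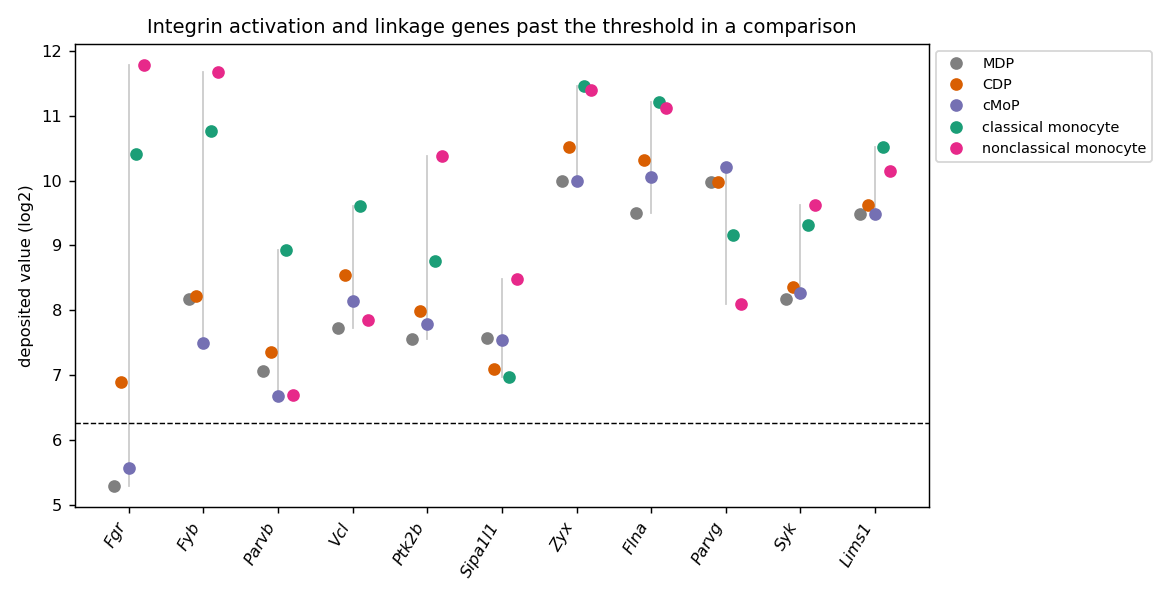
Deposited log2 values (y axis) of the 11 activation and linkage genes (x axis) that passed the threshold in at least 1 comparison, 1 point per population and array, with a grey line from lowest to highest and the floor of 6.27 dashed. Fgr spans 5.29 to 11.78, and Vcl and Parvb are highest in classical monocytes.

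Of the genes that encode integrin ligands, 24 were measured and 7 to 9 passed the floor in a comparison. Fn1, which encodes fibronectin, the ligand of alpha5 beta1 and alpha4 beta1, had values of 7.01 in MDP, 9.45 in CDP, 7.39 in cMoP, 12.69 in classical monocytes and 6.70 in nonclassical monocytes. It was 39.4-fold higher in classical monocytes than in cMoP and 63.4-fold lower in nonclassical ones. Its receptor chain Itga5 was also highest in classical monocytes and lowest in nonclassical ones, over a much smaller range. The other chains of these receptors, Itga4 (11.91) and Itgb1 (10.91), were instead highest in nonclassical monocytes, where Fn1 was lowest. Thbs1, the gene of thrombospondin 1, was at 8.13 in classical monocytes and under the floor on the other 4 arrays. Icam1 and Icam2, ligands of beta2 integrins, ranged from 7.02 to 7.76 and from 7.86 to 8.65 and were not counted in any of the 5 comparisons.

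Tetraspanins and other membrane proteins accompany integrins at the cell surface. Of 11 measured, 3 were lower in CDP than in MDP, namely Cd63 (-1.62), Tspan32 (-1.35) and Cd81 (-1.24), and 0 were higher. Over all genes past the floor, 1.06% were lower and 1.15% higher. In nonclassical against classical monocytes 3 were higher, the tetraspanin genes Cd9 (2.50, 5.67-fold), Cd81 (2.14) and Cd82 (1.71), and 0 were lower (3.55% and 9.82% over all genes). Cd63 and Cd81 were lower in classical monocytes than in cMoP, at -3.56 and -3.05, and Plaur, the urokinase receptor that associates with Mac-1, was higher by 1.97 (3.91-fold). In cMoP, Cd63 and Plaur were above MDP by 1.52 and 1.33.

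Genes with the nearest profile were found for the 9 integrin genes with a range of at least 1 log2 unit, which leaves out Itgb3, by the root mean square distance between values centred on each gene's own mean over the 5 arrays, among 4050 genes with a range of at least 1 log2 unit. The nearest to Itgal was another integrin gene, Itgav, at a distance of 0.06, followed by Dock5 at 0.10. Itga4 lay nearest to Samsn1 (0.12) and Nfkbia (0.15), Itgb1 to Tppp3 (0.10) and Nfe2l2 (0.11), Itga5 to Tiam1 (0.02) and Map3k6 (0.04), and Itga6 to Nme1 (0.05) and Hdac2 (0.06). Itgam lay nearest to Zbp1 (0.21) and Ifi213 (0.28), Itgb2 to Nupr1 (0.27) and Il13ra1 (0.40), and Itgb7 to Tlr9 (0.24) and Ahnak (0.28). Itgax had no such near gene, Fam135a (0.45) and Grap2 (0.49) being the nearest. Its values under the floor entered these distances as deposited, so the distances rest partly on an order that is not read here. Among the 10 integrin genes described here, which leave out Itgav, Itgal and Itga4 were the nearest pair at 0.34. Itga4 and Itgb1 stood at 0.45 and Itgam and Itgb2 at 0.63, and Itgb2 and Itgax were 2.0 apart, again with Itgax values under the floor.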

How the data were processed

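Expression was measured on 1 array for each of 5 sorted populations, grouped by the sample titles. Per the labels' protocols, the RNAqueous-Micro kit was used for extraction and the Nugen Encore kit for biotin labelling. The deposited table holds 1 log2 value per array for 35556 probe sets. A log2 scale was inferred from their range (1.59 to 14.24). The base, the background correction and the normalization are not stated in the labels. Array medians ran from 6.02 to 6.16. In 46.6% of probe sets at least 2 arrays hold exactly the same value, as for 2 of the integrin genes, so small differences may be missing. Of the probe sets, 21789 carry 1 symbol in the platform annotation, 1621 several and 12146 are not listed. Per gene the probe set with the highest mean was used. The 3 probe sets shared by Rpl35 and Itgam were left out.

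Differences, counts and distances were computed with Python 3.11.15, numpy 2.4.6 and pandas 2.3.3. The counting was run on simulated data with shifts well past the threshold, which checks the code and not differences near the threshold. No test was possible with 1 array per population. All 10 integrin genes are named, and from each other list at most 4 genes counted in a comparison, by size of difference, besides genes whose values bear on a result, chosen after their values were seen. The members and lists were chosen with earlier results of these data known. The alternatives were quantile normalization, centring, the mean of probe sets, 2 other floors and 2 other thresholds.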

Additional observations from a re-analysis of the deposited data

How the results depend on the processing

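Of the 50 differences of integrin genes, 3 changed side of the threshold with quantile normalization, all in the nonclassical against classical comparison. With arrays centred on 1 median, 0 did. Averaging the probe sets of 1 gene left all 50 values as they were, so it was no check on these genes. The largest moves with quantile normalization and with centring were 0.25 and 0.11 log2 units, and 0 counted differences changed sign. Quantile normalization gave 5 higher genes in place of 3 in nonclassical against classical monocytes, where over all genes it gave 454 in place of 373. A floor at the upper quartile (7.93) left 1 lower gene in place of 2 in cMoP against CDP, since Itgax did not reach it. It also left 2 higher in place of 3 in CDP against MDP. In nonclassical against classical monocytes it left 2 higher and 2 lower in place of 3 and 3. A floor at the lower quartile (5.08) moved no count by over 1.5 times. A 4-fold threshold left 0 higher genes in CDP against MDP, 0 in cMoP against MDP and 0 lower in cMoP against CDP. It left 3 higher in classical monocytes against cMoP, and 1 higher and 0 lower in nonclassical against classical monocytes. A 1.5-fold threshold gave 1 lower gene in cMoP against MDP and 3 in cMoP against CDP. In classical monocytes against cMoP it gave 6 higher and 1 lower. It gave 5 higher in nonclassical monocytes and 4 in place of 2 with both monocyte arrays above all progenitor arrays. Shares over all genes at these other floors and thresholds are not given here. No paired analysis was possible because each population has 1 array. Values near or under the floor, as for Itgax, Itgb3 and Itga8, rest on dim signal, and the absence of replicates limits every difference.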

Other observations

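Selectins and their ligands let cells roll before integrins arrest them. Of 8 measured genes, 1 was lower in CDP than in MDP, Sele (-1.49), where 1.06% of all genes past the floor were. In cMoP against MDP, cMoP against CDP and classical monocytes against cMoP, 0 were counted. Shares of higher or lower genes over all genes there ran from 1.4% to 7.01%. In nonclassical against classical monocytes St3gal6, a sialyltransferase, was at least 2.0-fold higher and Gcnt1, a core 2 branching enzyme, 2.17-fold lower (-1.12, and -0.94 after quantile normalization). Selplg, which encodes the selectin ligand PSGL-1, was highest in classical monocytes, at 12.01, and was not counted in any of the 5 comparisons.

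The 3 probe sets annotated to both Rpl35 and Itgam ran from 12.06 to 13.12 and each varied by at most 0.52 log2 units over the 5 arrays, where the probe set of Itgam alone varied by 3.61. Itgae, which encodes the alpha chain of CD103, held the same value of 5.16 on all 5 arrays, under the floor.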
